A study of Mus musculus with 32 samples.

Results

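Multipotent progenitors (MPP) were compared with haematopoietic stem cells (HSC) of mice that carried a Jarid2 knockout in the blood system. The libraries were chosen by their titles, which name Vav-Jarid2-KO MPP and Vav-Jarid2-KO HSC, and they were 3 MPP and 3 HSC libraries, 6 of the 24 RNA-seq libraries in a series of 32 samples. All mice were C57BL/6 and 8 weeks old and carried Vav-Cre, a recombinase transgene driven by a promoter that is active across blood cells. HSC were sorted as lineage-negative, cKit+, Sca1+, CD48- and CD150+ cells, and MPP by the same markers except that they were CD150-. The reference was the same contrast in 3 MPP and 3 HSC libraries of the Vav control, whose genotype is given as wild-type with the same Cre driver. Each library came from pooled mice, and the protocol gives the pool once as 5 male and 5 female mice and once as 3 male and 3 female mice. Replicates were taken as separate pools, and in that case p-values cover the spread from pool to pool. Libraries were made from 3 to 5 ng of RNA with a SMARTer Ultra Low kit, which amplifies full-length cDNA.

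The protein Jarid2 associates with Polycomb repressive complex 2 (PRC2), which methylates histone H3 at lysine 27 and so keeps developmental genes silent. HSC renew themselves and are mostly quiescent, and the MPP that arise from them divide more and give rise to all blood lineages without long-term self-renewal. The surface receptor CD150, encoded by Slamf1, marks HSC, and the cytokine receptor FLT3 appears as progenitors become primed for lymphoid fates. HSC also carry transcripts of megakaryocyte and platelet genes such as Vwf. The question of the comparison was which of the differences between HSC and MPP are still there when Jarid2 is lost.

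The 6 libraries held 10473535 to 23932326 counts in genes. Among them, replicate 1 of the Jarid2-KO MPP was unlike the other 5. It lay at one end of the first principal component, which carried 27.75% of the variance among all 12 Vav libraries. Its counts from mitochondrial genes were 0.559% of the total against 1.64% to 2.66% in the other 5. Xist, the transcript of the inactive X chromosome, stood at 1.82 CPM (counts scaled to the total of their library) against 191 to 308 CPM, although the pools are labelled as holding mice of both sexes. The neutrophil granule genes Mpo and Elane stood at 4881 and 7104 CPM in it, and at 1050 to 1954 and 1534 to 3012 CPM in the other MPP libraries of the knockout. The counts of genes called, and the values of many of the genes named, are therefore given with and without this library.

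The targeted gene Jarid2 stood at 80.2, 83.0 and 144 CPM in the HSC and at 129, 107 and 113 CPM in the MPP of the knockout, and at 77.6 to 109 and 91.8 to 126 CPM in the control HSC and MPP. Reads of any exon enter the count, and which exons the knockout allele lacks was not used here, so the level is no test of the deletion. Between Jarid2-KO MPP and HSC, Jarid2 did not pass the test (log2 fold change 0.20, SE 0.22, adjusted p = 0.809).

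Slamf1, the sort marker, and Flt3, a progenitor marker outside the gate, separated the knockout populations. Slamf1 (ENSMUSG00000015316, mm10 chromosome 1, 171767127 to 171801184) stood at 85.5, 95.5 and 82.4 CPM in Jarid2-KO HSC and at 2.19, 14.1 and 5.44 CPM in Jarid2-KO MPP. The groups did not overlap, and MPP replicate 2 held more than the other MPP libraries. CD150 was used to sort the cells, so this fall (log2 fold change -3.60, SE 0.45, adjusted p = 0.00121) is a check of the gate and not a finding. Without MPP replicate 1 the fall was -3.18 (SE 0.31, adjusted p = 4.28e-05). Flt3 (ENSMUSG00000042817, chromosome 5, 147330741 to 147400489) was not used in the sort. It stood at 18.8, 32.8 and 17.6 CPM in Jarid2-KO HSC and at 276, 133 and 198 CPM in Jarid2-KO MPP. The lowest MPP library was above the highest HSC library, and Flt3 rose by 3.15 on the log2 scale (SE 0.38, adjusted p = 0.00121), or by 2.82 (SE 0.35, adjusted p = 0.00121) without MPP replicate 1. In control cells Flt3 stood at 27.3, 45.0 and 69.3 CPM in HSC and at 405, 489 and 580 CPM in MPP. The control rise was 3.33 (SE 0.38, adjusted p = 0.000419), and the difference between the genotypes in this change was -0.19 (SE 0.49, unadjusted p = 0.713). Of the other gate genes, Kit (cKit) stood at 777 to 1041 CPM and Ly6a (Sca1) at 49.6 to 111 CPM in the 6 knockout libraries. In knockout, Cd48 stood at 15.5, 28.9 and 29.3 CPM in HSC and at 26.3, 42.7 and 50.7 CPM in MPP. These groups overlapped and Cd48 did not pass (log2 fold change 0.71, adjusted p = 0.493). Cd48 was higher in control MPP than in control HSC (1.69, adjusted p = 0.0339).

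The promoters of 4 genes are shown, all from the 16 genes that passed in every setting tried. They are Flt3 and Ccl3, the 2 that rose, and Slamf1 and Gkn3, picked by hand from the 14 that fell. Each is the 250 bases before the RefSeq transcription start on GRCm38.p6, 5′ to 3′ on the gene's strand. Slamf1 is at chr1:171766882-171767131 on the plus strand, and Gkn3 at chr6:87388936-87389185, Flt3 at chr5:147400490-147400739 and Ccl3 at chr11:83649379-83649628 on the minus strand. Capitals mark the GATA motif GATAA and the RUNX motif TGTGGT, searched on both strands, so that TTATC is GATAA read from the other strand.
Slamf1: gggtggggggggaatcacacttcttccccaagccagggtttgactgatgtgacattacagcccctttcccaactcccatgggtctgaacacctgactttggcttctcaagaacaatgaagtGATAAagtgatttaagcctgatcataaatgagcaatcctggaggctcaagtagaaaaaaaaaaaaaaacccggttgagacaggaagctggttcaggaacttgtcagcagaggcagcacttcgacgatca
Gkn3: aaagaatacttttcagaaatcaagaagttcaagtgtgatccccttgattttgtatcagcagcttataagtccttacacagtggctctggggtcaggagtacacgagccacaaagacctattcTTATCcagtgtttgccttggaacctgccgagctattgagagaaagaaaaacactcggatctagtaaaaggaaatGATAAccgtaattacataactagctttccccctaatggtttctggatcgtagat
Flt3: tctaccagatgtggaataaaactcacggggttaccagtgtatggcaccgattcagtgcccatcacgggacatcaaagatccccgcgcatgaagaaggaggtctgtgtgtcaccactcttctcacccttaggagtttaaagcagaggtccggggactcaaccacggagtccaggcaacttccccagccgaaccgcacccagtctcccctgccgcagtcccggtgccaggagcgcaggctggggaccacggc
Ccl3: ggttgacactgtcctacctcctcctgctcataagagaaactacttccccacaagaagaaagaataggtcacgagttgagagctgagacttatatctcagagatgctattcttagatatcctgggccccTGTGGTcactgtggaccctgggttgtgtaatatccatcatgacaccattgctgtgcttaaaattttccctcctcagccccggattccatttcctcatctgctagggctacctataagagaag
The Slamf1 window held 1 GATAA and 3 CpG dinucleotides, the Gkn3 window 2 GATAA and 5 CpG, the Ccl3 window 1 TGTGGT and 2 CpG, and the Flt3 window neither motif and 13 CpG. RefSeq promoters were matched for 35 of the 55 genes that were lower in Jarid2-KO MPP, 24 of the 28 that were higher, and 11203 of the 15818 tested. GATAA was present in 28.6% of the promoters of lower genes, 8.33% of those of higher genes and 14.9% of all. TGTGGT was present in 11.4%, 29.2% and 11.1%. The median number of CpG was 6 in the lower, 4.5 in the higher and 15 in all promoters. These are descriptions of letters in a window and not of binding sites.

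Jarid2-KO MPP differed from Jarid2-KO HSC in 83 of 15818 genes tested (0.525%), 28 higher (0.177%) and 55 lower (0.348%), by edgeR's quasi-likelihood test with a Benjamini-Hochberg adjusted p under 0.05. The lower genes included Clu, Vwf, Nupr1 and Aldh1a1, and the higher genes included Flt3, the chemokine Ccl3 and the lymphoid genes Satb1 and Tespa1. The 3 MPP and 3 HSC libraries did not overlap in any of the 83, where 11.7% of all genes tested did not overlap. Without MPP replicate 1, 138 of 16585 genes passed (0.832%), 52 higher (0.314%) and 86 lower (0.519%), and 77 of the 83 were among them. The count also moved with other libraries: it was 37, 36 and 43 without Jarid2-KO HSC replicate 1, 2 or 3, and 180 without MPP replicate 3. Under the main settings and 22 alternatives, 16 genes passed in the same direction every time. Of these, 2 rose (Flt3 and Ccl3) and 14 fell, which were Slamf1, Clu, Gkn3, Cavin2, Vwf, Aldh1a1, Nupr1, Timp3, Gpx8, Podxl, Slfn2, Gdf3, Art4 and Clca3a1. All 16 also passed in the control contrast.

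**Figure D1:**
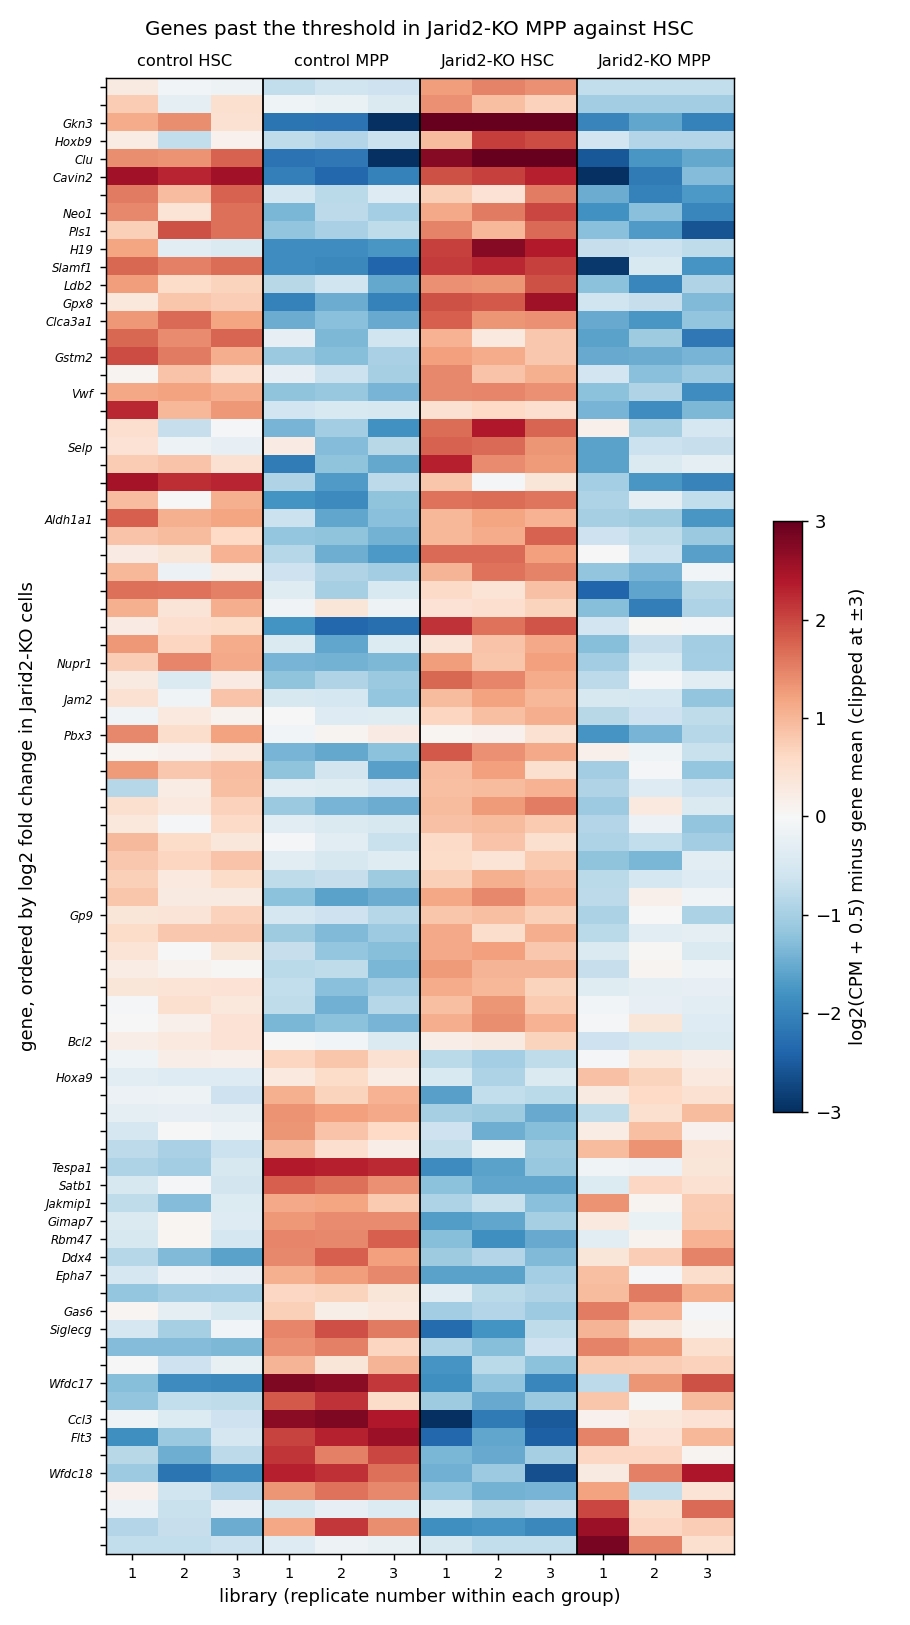
Levels of 82 of the 83 genes past the threshold in Jarid2-KO MPP against HSC, one row per gene and one column per library of the 12, as log2(CPM + 0.5) minus the mean of the gene, limited to 3 on either side. Rows run from the largest fall at the top to the largest rise at the bottom, and 81 of the 82 changes shown had the same sign in control. Rows are labelled where a gene was named by rule.

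Clu, Vwf and Nupr1 fell in both genotypes. Clu, the secreted chaperone clusterin, stood at 54.8, 68.6 and 68.9 CPM in Jarid2-KO HSC and at 0.940, 2.00 and 2.39 CPM in Jarid2-KO MPP. Every HSC library was far above every MPP library. The change was -5.18 (SE 0.40, adjusted p = 4.06e-05), and -4.90 (adjusted p = 3.37e-06) without MPP replicate 1. In control cells the fall was -4.56 (SE 0.39), from 20.8 to 28.2 CPM in HSC down to 0.441 to 1.39 CPM in MPP. Vwf, the platelet adhesion protein von Willebrand factor that marks platelet-biased HSC, stood at 88.4, 90.1 and 85.3 CPM in Jarid2-KO HSC and at 13.6, 17.0 and 8.498 CPM in Jarid2-KO MPP. The HSC libraries were tightly grouped, and the fall was -2.74 (SE 0.23, adjusted p = 6.63e-05), against -2.51 (SE 0.23) in control cells. The knockout fall of Vwf was -2.80 (adjusted p = 2.05e-05) without MPP replicate 1. Nupr1, a stress-induced chromatin protein, fell from 140, 104 and 139 CPM to 28.3, 42.9 and 28.6 CPM. Its log2 fold change was -1.94 (SE 0.24, adjusted p = 0.00121) in knockout and -2.63 (SE 0.24) in control cells. The knockout value was -1.86 (adjusted p = 0.00121) without MPP replicate 1. The groups did not overlap in either genotype.

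Enzymes, a coat protein and secreted factors were also lower in Jarid2-KO MPP. Gkn3, a gastrokine known from the stomach, stood at 42.4, 42.7 and 34.2 CPM in Jarid2-KO HSC and at 0.501, 0.835 and 0.477 CPM in Jarid2-KO MPP. Its log2 fold change of -5.99 (SE 0.58, adjusted p = 0.00014) was the largest fall among the genes chosen for naming, and in control HSC it stood at 4.96 to 9.89 CPM with a fall of -5.08 (SE 0.59). Leaving out MPP replicate 1 gave -5.88 (adjusted p = 7.5e-05) for Gkn3 in knockout. Cavin2, a coat protein of caveolae, fell from 59.98, 66.4 and 81.3 CPM to 0.689, 3.23 and 6.01 CPM (log2 fold change -4.42, SE 0.48, adjusted p = 0.000596). MPP replicate 1 was the lowest of its group, and without it the change was -3.95 (adjusted p = 3.37e-06). Aldh1a1, a retinaldehyde dehydrogenase that makes retinoic acid, fell from 67.2, 76.0 and 69.0 CPM to 16.4, 15.6 and 9.64 CPM (-2.33, SE 0.29, adjusted p = 0.00121). The Aldh1a1 change was -2.50 (adjusted p = 0.000602) without MPP replicate 1. Timp3, an inhibitor of metalloproteinases, fell by 2.10 on the log2 scale (SE 0.25, adjusted p = 0.00121). Its change was -1.95 (adjusted p = 0.000869) without MPP replicate 1. Of its exon bases, 21.3% lie opposite Syn3 on the other strand. Whether counting used strand is not given in the sources used here, and reads of overlapping genes cannot be told apart. The falls of Neo1 (a netrin-family receptor), Pls1 (an actin bundler), Ldb2 (a LIM-domain cofactor), Gpx8 (a peroxidase of the endoplasmic reticulum), Gstm2 and Clca3a1 were between -4.13 and -2.94. Gstm2 and Clca3a1 belong to families of near-identical copies, so their counts are uncertain.

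**Figure D2:**
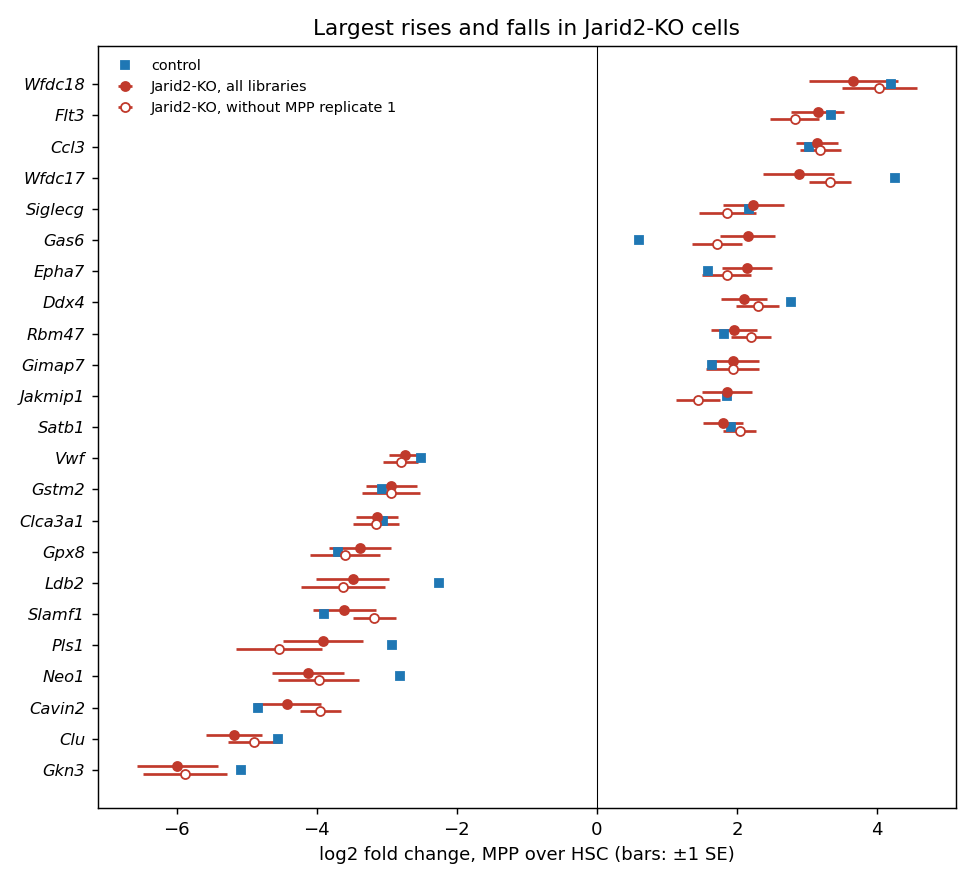
Log2 fold changes (MPP over HSC) of the 12 largest rises and 11 of the 12 largest falls named by rule, with bars of 1 SE for Jarid2-KO with all libraries (filled circles) and without MPP replicate 1 (open circles), and squares for control. Leaving out MPP replicate 1 moved no gene across 0. Gas6 was 2.15 in Jarid2-KO against 0.60 in control, a difference that did not pass the test between genotypes.

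Higher genes in Jarid2-KO MPP included receptors, a chemokine and nuclear regulators of lymphoid cells. Ccl3, the chemokine MIP-1 alpha, stood at 0.996, 2.21 and 1.55 CPM in Jarid2-KO HSC and at 12.47, 14.2 and 15.6 CPM in Jarid2-KO MPP (log2 fold change 3.14, SE 0.30, adjusted p = 0.00014). In control cells it stood at 7.20 to 10.4 and 62.6 to 82.8 CPM, above every knockout library of the same population, and its change was 3.03 (SE 0.29). The difference between the genotypes in this change was 0.11 (SE 0.38, unadjusted p = 0.772). With MPP replicate 1 left out, the knockout rise of Ccl3 was 3.19 (adjusted p = 2.76e-05). Satb1, a chromatin organiser of lymphoid progenitors and T cells, stood at 8.07, 6.27 and 6.28 CPM in HSC and at 14.6, 30.3 and 26.9 CPM in MPP of the knockout. MPP replicate 1 was the lowest of its group, and the rise was 1.80 (SE 0.28, adjusted p = 0.0092) with it and 2.04 (SE 0.24, adjusted p = 0.000362) without it, against 1.91 (SE 0.28) in control. Without HSC replicate 2 or 3, Satb1 no longer passed (adjusted p = 0.0613 and 0.0597).

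Of the further rises, Epha7 (an ephrin receptor), Ddx4 (an RNA helicase known from germ cells), Rbm47 (an RNA-binding protein), Siglecg (a sialic acid-binding inhibitory receptor of B cells), Jakmip1 and Gimap7 had log2 fold changes of 1.85 to 2.23, each past the threshold in control cells too. The WAP-domain genes Wfdc17 and Wfdc18 rose by 2.88 (SE 0.50) and 3.66 (SE 0.64). Wfdc17 held 15.04, 66.7 and 101 CPM in the MPP libraries, with replicate 1 the lowest, and its rise was 3.32 without that library. Wfdc17 and Wfdc18 are neighbouring copies, and Gimap7 belongs to a cluster of related genes, so their counts are uncertain. Without HSC replicate 1, Epha7, Ddx4, Rbm47, Siglecg, Jakmip1, Gimap7, Wfdc17 and Wfdc18 no longer passed, with adjusted p from 0.0517 to 0.161. Rbm47, Jakmip1, Gimap7 and Wfdc17 were also lost without HSC replicate 2 and without HSC replicate 3. Epha7 and Siglecg were lost without HSC replicate 2, and Ddx4 and Wfdc18 without HSC replicate 3. Siglecg, Jakmip1 and Gimap7 did not pass when any control MPP library was left out. They passed in 14, 12 and 13 of 23 settings.

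**Figure D3:**
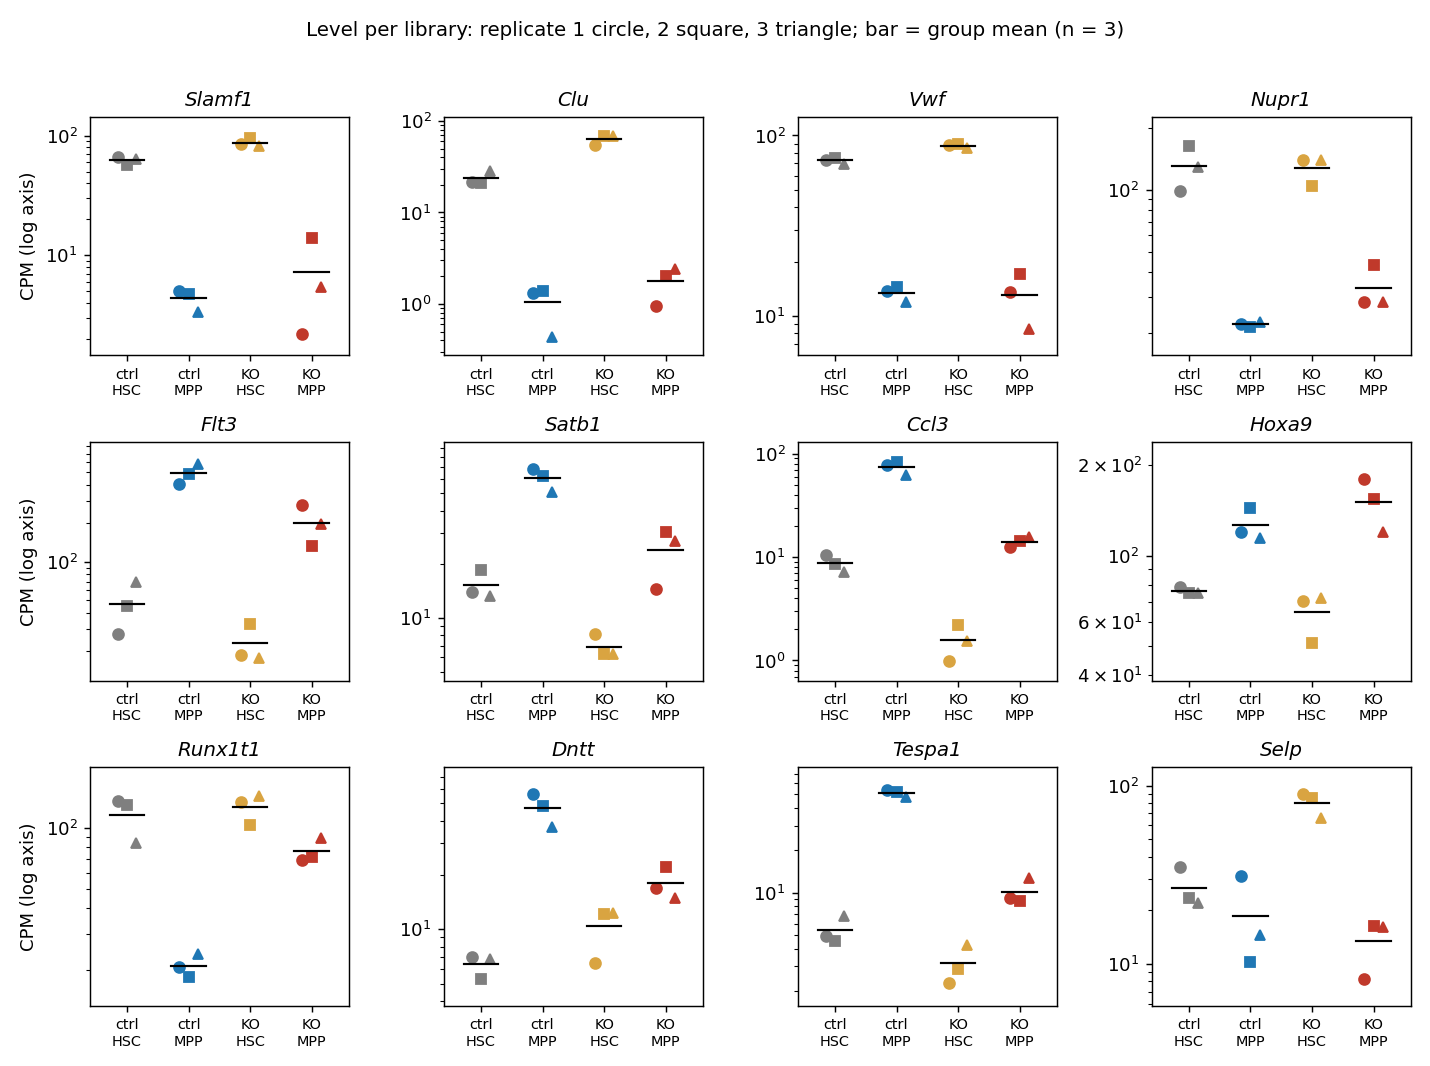
Level of 12 genes in each of the 12 Vav libraries in CPM on a log axis, with a circle, square and triangle for replicates 1, 2 and 3 and a bar for the group mean. The top row shows genes that fell in MPP of both genotypes, the middle row genes that rose in Jarid2-KO MPP, and the bottom row genes with small p of the difference between genotypes.

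Of the genes past the threshold in knockout, 59 of 83 were also past it in control cells. In control, 185 of 15818 genes passed (1.17%), 81 higher (0.512%) and 104 lower (0.657%). The 59 passed in the same direction, 18 higher and 41 lower, and none passed in the opposite direction. The 59 made up 71.1% of the knockout genes and 31.9% of the control genes. The contrasts share no library, but all 12 libraries were fitted together, so both use the same estimate of each gene's spread. With only the 6 libraries of each genotype fitted, 20 genes passed in both, 5.06% of those in control. The share of the knockout genes moved in both directions with the settings. Lower shares were 33.2% with no filter on low counts, 42.3% with DESeq2 and 39.4% when MPP replicate 3 of the knockout was dropped. Dropping any control library gave 51.6% to 60%. Higher shares were 82.2% with limma-voom and 87% with only the 6 libraries fitted. Dropping knockout HSC replicate 1, 2 or 3 gave 78.4%, 88.9% and 86%. The highest was 90.8%, from limma-voom with knockout MPP replicate 1 dropped. Without MPP replicate 1, 93 genes passed in both, 67.4% of the 138 in knockout and 23.1% of the 403 in control (2.43% of genes tested, 1.12% higher and 1.31% lower). The overlap was 29 to 38 genes when any of the Jarid2-KO HSC replicates 1, 2 and 3, the control MPP replicates 1, 2 and 3 or control HSC replicate 2 was left out, and 39 without control HSC replicate 3.

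Below the threshold, most of the 185 control genes pointed the same way in the knockout. Of the 185, 182 had the same sign in Jarid2-KO cells, against 64.1% of all 15818 genes, and 153 did so at an unadjusted p under 0.05, which 10.8% of all genes reached. By direction these were 61 of the 81 higher genes (6.38% of all genes) and 92 of the 104 lower genes (4.47%). Without MPP replicate 1, 182 had the same sign, against 56.1% of all genes. Their changes were smaller in the knockout for 154 of 185: the median of the 81 higher genes was 1.70 in control and 0.87 in Jarid2-KO, and that of the 104 lower genes -1.91 and -1.34. Genes picked for passing in one contrast tend to be larger there. In the other direction, of the 83 genes picked in the knockout, 82 had the same sign in control, 78 at an unadjusted p under 0.05 (8.44% of all genes, 3.86% higher and 4.58% lower), and 54 were smaller in control. Across all 15818 genes the log2 fold changes of the 2 genotypes had a Spearman correlation of 0.389, and of 0.474 over the 11082 genes with an average logCPM of at least 2. Without MPP replicate 1, where other genes were tested, the values were 0.212 over 16585 genes and 0.26 over 11030. Genes are not independent replicates, and the correlations are descriptions.

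**Figure D4:**
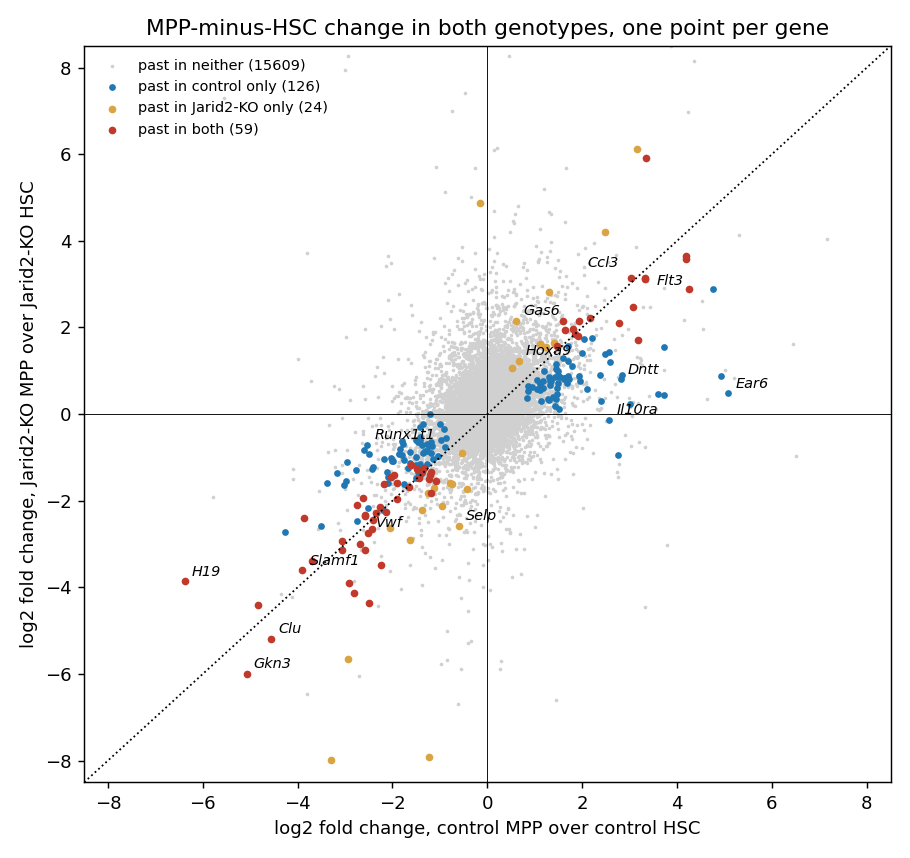
Log2 fold change of MPP over HSC in control (horizontal axis) and Jarid2-KO cells (vertical axis), one point per gene of 15818, with 1 point outside the axes. The 59 genes past the threshold in both genotypes lie in the lower left and upper right along the diagonal, and the 126 that passed only in control lie mostly closer to 0 on the vertical axis.

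The 24 genes that passed in Jarid2-KO and not in control were 10 higher and 14 lower, and a call in one genotype alone does not show a difference. Selp, the adhesion receptor P-selectin of platelets and endothelium, stood at 90.1, 85.2 and 66.2 CPM in Jarid2-KO HSC and at 8.21, 16.4 and 16.0 CPM in Jarid2-KO MPP (log2 fold change -2.57, SE 0.39, adjusted p = 0.00652). In control cells it stood at 35.2, 23.5 and 21.9 CPM in HSC and at 31.0, 10.2 and 14.5 CPM in MPP, groups that overlapped (-0.60, SE 0.37, adjusted p = 0.823). The difference between the genotypes in this change was -1.98 (SE 0.52, unadjusted p = 0.00198, adjusted p = 0.9999), and 14.1% of the exon bases of Selp lie opposite other genes. With MPP replicate 1 left out, the knockout change of Selp was -2.335 (adjusted p = 0.00634). The difference was then -1.74 (unadjusted p = 0.00243). Gas6, the ligand of the TAM receptor kinases, rose from 3.29, 3.76 and 3.17 CPM to 22.2, 15.7 and 7.07 CPM (2.15, SE 0.39, adjusted p = 0.0211). MPP replicate 1 was the highest, and the rise was 1.71 (adjusted p = 0.0314) without it. In control, where the groups did not overlap either, the change was 0.60 (SE 0.38, adjusted p = 0.836). The difference between the genotypes was 1.55 (SE 0.54, unadjusted p = 0.0119, adjusted p = 0.9999), and 1.105 (unadjusted p = 0.0368) without MPP replicate 1. Gas6 no longer passed when HSC replicate 1, 2 or 3 was left out (adjusted p = 0.136, 0.0918 and 0.122).

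Hox genes and their cofactors moved in both directions. Hoxa9, a homeobox factor of progenitors and leukaemia, stood at 70.8, 51.1 and 72.4 CPM in Jarid2-KO HSC and at 179, 154 and 119 CPM in Jarid2-KO MPP (log2 fold change 1.24, SE 0.20, adjusted p = 0.0092). Without MPP replicate 1 the rise was 1.06 (adjusted p = 0.00753), and without HSC replicate 2 it no longer passed (1.10, adjusted p = 0.0613). In control cells Hoxa9 went from 74.8 to 78.7 CPM in HSC to 114 to 144 CPM in MPP, groups that did not overlap, with a change of 0.66 (SE 0.19, adjusted p = 0.159). Hoxb9 had 26, 82 and 56 counts in Jarid2-KO HSC and 2, 0 and 0 counts in Jarid2-KO MPP, a ratio of 58.7 with a 95% counting interval (exact) of 16.0 to 489. With MPP replicate 1 left out, no count remained in MPP, which is at least 25.1-fold lower against a floor of 3 counts over the group. The exact 95% interval, which also covers the counting error in HSC, then starts at 20.2. Hoxb9 passed (adjusted p = 0.0439) in 9 of 23 settings, and not when any library other than MPP replicate 1 and control HSC replicate 2 was left out (adjusted p from 0.053 to 0.193). Pbx3, a partner of Hox proteins, fell by 1.70 on the log2 scale (adjusted p = 0.0497) and did not pass without MPP replicate 1 (adjusted p = 0.0728), nor when any other library except MPP replicate 3 was left out (adjusted p from 0.0603 to 0.156). Of 20 genes on the list of Hox genes and cofactors, 1 was higher and 2 were lower in knockout, against 0.177% and 0.348% of all genes tested.

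Jam2 (an adhesion molecule of cell junctions), Cd38 (an enzyme that degrades NAD) and Bcl2 (an inhibitor of apoptosis) fell by 1.81, 2.22 and 0.90 on the log2 scale in Jarid2-KO MPP, and their control values were -1.26, -1.38 and -0.54. Bcl2 stood at 73.4, 76.9 and 102 CPM in HSC and at 41.2, 45.6 and 47.1 CPM in MPP, groups that did not overlap. Its adjusted p was 0.0416, it passed in 7 of 23 settings, and it did not pass when any library other than MPP replicate 1 or 3 was left out (adjusted p from 0.0518 to 0.164). Jam2 did not pass without HSC replicate 1, 2 or 3 (adjusted p = 0.0557, 0.0803 and 0.0504). Low genes can be given as counts only: Tnfrsf11b, the decoy receptor osteoprotegerin, had 44, 34 and 21 counts in Jarid2-KO HSC and none in MPP, which is at least 23.6-fold lower against a floor of 3 counts over the MPP group, or 15.1-fold without MPP replicate 1. The exact 95% interval of its ratio, which also covers the counting error in HSC, starts at 18.9 with all libraries and at 12.1 without MPP replicate 1. Dok5, an adaptor protein, had 30, 44 and 30 counts in HSC and none in MPP. This is at least 24.8-fold lower by the same floor, or 15.9-fold without MPP replicate 1. Its interval starts at 19.8 with all libraries and at 12.7 without that library.

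H19, a maternally expressed imprinted RNA, passed in both genotypes. It fell from 6.97, 11.5 and 8.998 CPM to 0.627, 0.668 and 0.573 CPM in knockout (log2 fold change -3.85, SE 0.62, adjusted p = 0.0105), and it did not pass without HSC replicate 2 (-3.64, adjusted p = 0.0576). Without MPP replicate 1 H19 still passed (-3.89, adjusted p = 0.0114). Control HSC held 3.601, 0.931 and 0.845 CPM. Among 19 imprinted genes tested, H19 was the 1 that passed in knockout, with 3 lower in control (H19, Grb10 and Cdkn1c). Over all genes tested, 0.348% were lower in knockout and 0.657% in control. Grb10, an adaptor that dampens growth factor signalling, was -0.65 in knockout and -1.18 in control. Cdkn1c, the cell cycle inhibitor p57, was -0.63 in knockout, with 71.8, 75.9 and 73.8 CPM in HSC and 21.0, 64.9 and 57.2 CPM in MPP, and -1.79 in control.

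The test of the difference between genotypes called 0 of 15818 genes (0%) in edgeR, with 419 genes at an unadjusted p under 0.05 and a smallest adjusted p of 0.704. DESeq2 called 7 and limma-voom 0. Without MPP replicate 1 edgeR called 0, with 1143 genes at an unadjusted p under 0.05 and a smallest adjusted p of 0.354, DESeq2 called 13 and limma-voom 0. The genes named here have the 10 smallest unadjusted p among genes with an average logCPM of at least 2, with predicted genes and pseudogenes left out. The smallest belonged to Runx1t1, a corepressor of the ETO family found in HSC. It stood at 134, 103 and 144 CPM in HSC and at 69.1, 71.5 and 89.3 CPM in MPP of the knockout, and at 135, 130 and 84.0 CPM in HSC and 20.5, 18.4 and 23.9 CPM in MPP of the control. The groups did not overlap in either genotype, and the control MPP were the lowest of the 4 groups. The change was -0.71 (SE 0.23) in knockout and -2.54 (SE 0.25) in control, a difference of 1.83 (SE 0.33, unadjusted p = 6.72e-05), and 1.87 (unadjusted p = 2.59e-05) without MPP replicate 1. DESeq2 called it (adjusted p = 0.00229).

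The next by this rule was Dntt, the template-independent DNA polymerase of lymphoid progenitors. It stood at 6.53, 12.2 and 12.3 CPM in HSC and at 17.0, 22.1 and 14.8 CPM in MPP of the knockout, where the groups did not overlap but the change of 0.80 (SE 0.28) did not pass (adjusted p = 0.278). In control cells it rose from 5.29 to 7.05 CPM to 36.8 to 56.1 CPM (2.81, SE 0.29, adjusted p = 0.000184). The difference was -2.01 (SE 0.39, unadjusted p = 0.00014, and adjusted p = 0.00229 in DESeq2), with the same sign without MPP replicate 1 (unadjusted p = 0.000117). Il10ra, a receptor chain for interleukin-10, was at 11.2, 10.8 and 7.72 CPM in HSC and 10.2, 4.18 and 12.51 CPM in MPP of the knockout, groups that overlapped, against a rise of 2.57 (SE 0.40) in control. DESeq2 called the difference of Il10ra (adjusted p = 0.00293, and 0.0018 without MPP replicate 1). Tespa1, a gene of thymocyte development, rose in both genotypes, by 1.72 (SE 0.28, adjusted p = 0.0113) in knockout and by 3.17 (SE 0.29, adjusted p = 9.29e-05) in control. Its levels were 2.29 to 4.22 and 8.69 to 12.7 CPM in knockout HSC and MPP, and 4.54 to 6.87 and 48.2 to 53.3 CPM in control, a difference of -1.46 (SE 0.39, unadjusted p = 0.00215). Without HSC replicate 1 or 2, the rise of Tespa1 in knockout no longer passed (adjusted p = 0.0852 and 0.0789).

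The other genes of the 10 were Ear6, Ier3, Ccl9, Ccr2, Selp and Bex6. The chemokine Ccl9 and the chemokine receptor Ccr2 had log2 fold changes of 0.29 and -0.89 in knockout, with overlapping groups, and of 2.39 and 1.81 in control, where Ccl9 passed and Ccr2 did not. The immediate early gene Ier3 was -0.75 in knockout and 0.79 in control, and neither passed. Ear6, an eosinophil-associated ribonuclease, was at 0.367 to 0.407 CPM in control HSC and at 6.23 to 21.6 CPM in knockout HSC. It was at 3.15 to 31.9 CPM in knockout MPP and at 8.38 to 18.7 CPM in control MPP, and it belongs to a family of near-identical copies. DESeq2 called the difference of Ear6 with all libraries (adjusted p = 0.00229) and not without MPP replicate 1. Socs2, a feedback inhibitor of cytokine signalling, did not pass in knockout (0.01, SE 0.23, adjusted p = 0.995), with 113, 65.5 and 74.1 CPM in HSC and 74.8, 87.8 and 90.1 CPM in MPP, and fell in control from 40.4 to 52.0 CPM in HSC to 17.6 to 23.1 CPM in MPP (adjusted p = 0.0227). Its difference was 1.21 (SE 0.33, unadjusted p = 0.00239). Mycn, a MYC-family factor, was at 224 to 291 CPM in knockout HSC and at 148 to 256 CPM in knockout MPP, groups that overlapped (-0.32, SE 0.21, adjusted p = 0.635), with a control change of -0.79 (adjusted p = 0.118).

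Stem cell and lymphoid priming genes had medians of the same sign in both genotypes, nearer to 0 in the knockout. Lists were written with earlier results of these data known, and no set was tested. Of 40 stem cell genes, 8 were lower and 1 (Hoxa9) was higher in knockout, with a median log2 fold change of -0.50, against 12 lower and a median of -0.78 in control. Of all genes tested, 0.348% were lower and 0.177% higher in knockout, and 0.657% lower in control. The 8 were Vwf, Cavin2, Nupr1, Neo1, Slamf1, Clec1a, Ctnnal1 and Sult1a1, and all 8 were among the 12 of control. Slamf1 was the sort marker. Sult1a1 did not pass without MPP replicate 1 (adjusted p = 0.0521). Mecom and Hlf, transcription factors of HSC, and Procr, the receptor for protein C, did not pass (-0.25, 0.38 and 0.01). Over all genes tested the median was 0.05 in knockout and -0.02 in control.

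Of 24 lymphoid priming genes, 3 were higher in knockout (Flt3, Satb1 and Tespa1) and 7 in control (among them also Dntt, Cd53 and Cd52), against 0.177% and 0.512% of all genes. The medians were 0.71 and 1.54, and 23 of the 24 had positive values in each genotype. The summed level of the 24 genes was 1333 to 1570 CPM in knockout HSC and 2145 to 2215 CPM in knockout MPP, against 1243 to 1562 and 3127 to 3396 CPM in control. In bulk samples, fewer cells of a type and less RNA per cell cannot be told apart.

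Of 22 megakaryocyte and platelet genes, 3 were lower in knockout (Vwf, Selp and Gp9) with a median of -0.76, and 7 were lower and 1 higher in control with a median of -1.11. Of all genes, 0.348% were lower in knockout and 0.657% in control. Gp9, a subunit of the platelet receptor for von Willebrand factor, stood at 72.2, 76.0 and 65.8 CPM in HSC and at 20.6, 39.8 and 20.4 CPM in MPP of the knockout (-1.41, SE 0.24, adjusted p = 0.0128; control -1.22). Gp9 no longer passed without HSC replicate 1 or 2 (adjusted p = 0.0618 and 0.074), and was -1.27 (adjusted p = 0.014) without MPP replicate 1. Itga2b, the integrin CD41, was -1.48 (adjusted p = 0.0778) with all libraries and -1.98 (adjusted p = 0.00251) without MPP replicate 1. Pf4, a platelet chemokine, was -0.43 and overlapped between groups.

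Levels were highest in MPP replicate 1 for most members of 4 lists: granulocyte and monocyte, erythroid, stroma and endothelium, and immediate early genes. The same held for 8 of 15 macrophage and dendritic cell genes. It held for only 5 of 20 B, T and NK cell genes and 3 of 14 mast cell, basophil and eosinophil genes. Of 23 granulocyte and monocyte genes none passed in knockout, and their summed level was 3591 to 9663 CPM in HSC and 25250, 14820 and 6644 CPM in MPP replicates 1, 2 and 3. Replicate 1 held the highest level of the 6 libraries for 16 of the 23. The median was 1.29 with it, 0.70 without it and 1.24 in control, where Ctss and Cebpa passed. For 20 erythroid genes, of which 18 were highest in replicate 1, none passed and the median was 1.13 with that library and 0.23 without it. Their summed level was 6721, 4747 and 6748 CPM in MPP replicates 1, 2 and 3, so the sum was not highest in replicate 1. For 14 stroma and endothelium genes tested, the summed level of the 15 listed was 749.4 CPM in MPP replicate 1, 265.4 and 180.4 CPM in replicates 2 and 3, and 164.6 to 185.9 CPM in HSC. Their median was 2.96 with replicate 1 and 0.75 without it, and -0.49 in control, and none passed in either genotype. The summed level of 20 immediate early genes was 1904 CPM in MPP replicate 1 against 367.2 to 629.7 CPM in the other 5 libraries, and their median turned from 0.90 to -0.21 without it. No member of these 4 lists was at 0 in all 6 libraries, and their part in the results above was not tested.

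The proliferation and Polycomb lists held no call with all libraries. Of 33 DNA replication and 28 mitosis genes none passed, with medians of -0.16 and -0.09, or -0.41 and -0.50 without MPP replicate 1, against -0.31 and -0.39 in control. Without that library 1 DNA replication gene was lower, against 0.519% of all genes tested. It was Pold2, a subunit of DNA polymerase delta (-1.10, adjusted p = 0.0133, against 0.18 with that library). The number of positive values fell from 12 to 2 in each list. In control, 3 of 33 DNA replication and 4 of 28 mitosis genes had positive values, against 7610 of all 15818 genes. Most members of both lists were thus lower in control MPP than in control HSC, although MPP are described above as dividing more. Of 32 Polycomb subunits none passed (median 0.10), and none of 31 interferon response genes (median 0.03). Among 11 retinoic acid genes, Aldh1a1 passed, and Cyp26b1, which degrades retinoic acid, was -2.58 (adjusted p = 0.0661) in knockout and -3.52 (adjusted p = 0.0126) in control. Cytokine receptors (23 tested) had Flt3 alone past the threshold, with Il1r1, the interleukin-1 receptor, also higher in control (0.76 in knockout, 1.94 in control). Over all genes tested, 0.177% were higher and 0.348% lower in knockout, and 0.512% were higher and 0.657% lower in control.

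**Figure D5:**
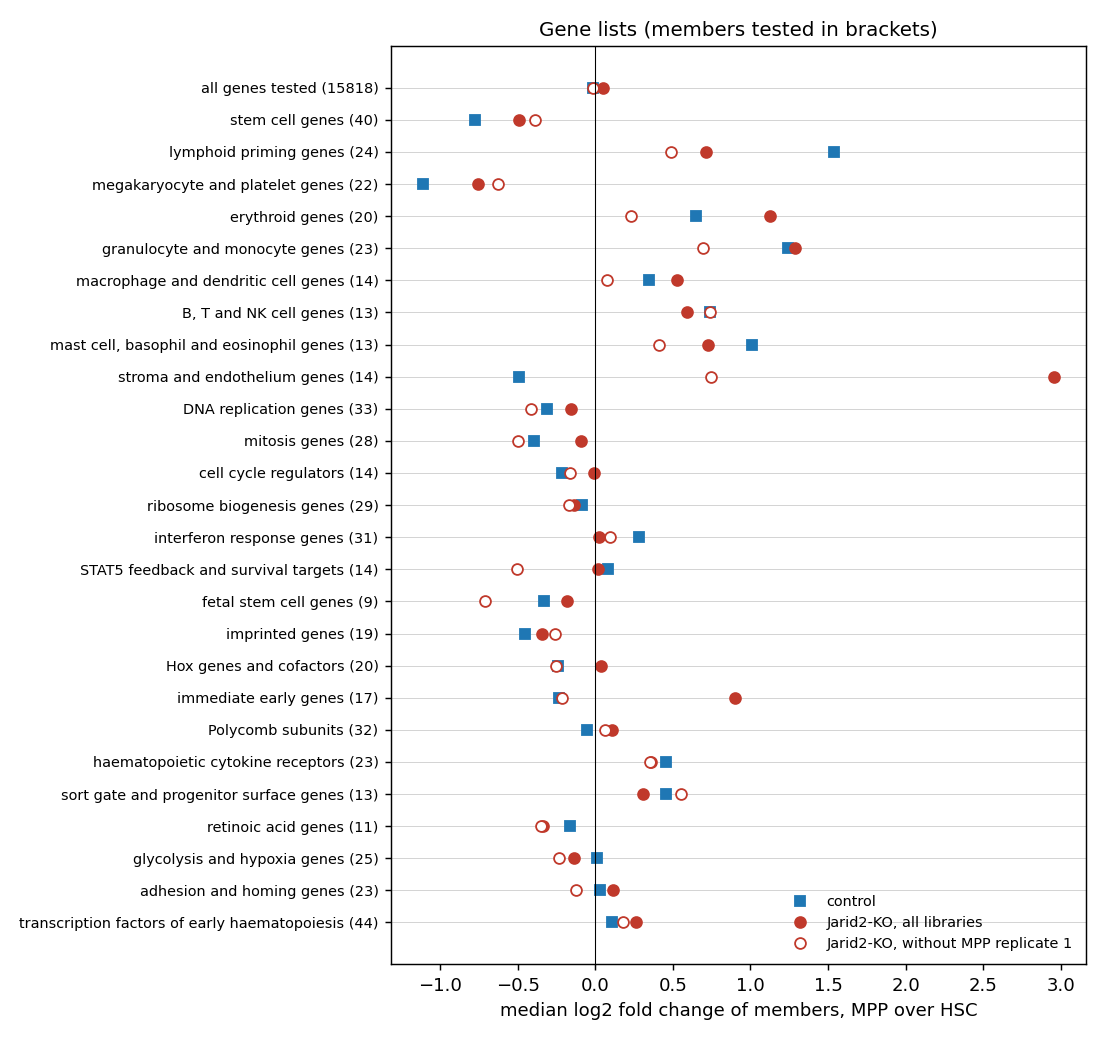
Median log2 fold change of MPP over HSC for the 26 gene lists and for all genes tested, in control (squares), in Jarid2-KO with all libraries (filled circles) and in Jarid2-KO without MPP replicate 1 (open circles). The stroma and endothelium list moved from 2.96 to 0.75 and the immediate early list from 0.90 to -0.21 when that library was left out.

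Leaving out MPP replicate 1 ended 6 calls and added 61. The 6 were Wif1, Postn, Ptn, Abcc9, Sult1a1 and Pbx3, whose adjusted p without it were 0.0516 to 0.103, and 2 of the 6 (Ptn and Sult1a1) also passed in control. Wif1, an inhibitor of WNT ligands, had 88, 33 and 7 counts in MPP replicates 1, 2 and 3 and 2, 0 and 0 in HSC, a ratio of 89.4 with a 95% counting interval of 24.2 to 746. Without replicate 1 the ratio was 43.6 (11.3 to 373). Among the 61 were Cd53, a tetraspanin of leukocytes, which stood at 98.0, 237 and 254 CPM in MPP and at 60.5 to 121 CPM in HSC, and moved from 1.21 (adjusted p = 0.128) to 1.51 (adjusted p = 0.00374). Also among them were Il1r1, Ctss, Itga2b, Bcl2l1 and the erythroid and megakaryocyte regulator Gfi1b, which moved from -0.59 to -1.21 (adjusted p = 0.00385). Bcl2l1, an inhibitor of apoptosis, stood at 249 CPM in MPP replicate 1 and at 47.2 and 74.8 CPM in replicates 2 and 3, against 114 to 179 CPM in HSC. These members of the 61 were chosen after their values were seen.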

How the data were processed

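RNA-seq of sorted mouse cells was analysed from one deposited file per library. Per the file headers, each file holds raw counts per Ensembl gene. The authors also deposited CPM, which sum to the same total in every library, and RPKM, which divide CPM by gene length; neither was tested. The submitters' processing notes give mm10 as the build and list, without roles, Partek 6.6, HTSeq 0.8.0, featureCounts 1.4.5, Subread and STAR 2.0.4. Per the labels, each library came from pooled mice, with 2 statements of pool size that differ.

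The 12 Vav libraries (10473535 to 27232379 counts) were fitted together with edgeR 4.0.16 in R 4.3.3 (filterByExpr with a minimum count of 10 and a minimum total of 15, TMM scaling, robust quasi-likelihood F test, Benjamini-Hochberg adjusted p under 0.05 over 15818 genes, 8 residual degrees of freedom). The contrasts were MPP against HSC within each genotype and the difference of these changes. Log2 fold changes are those of the fit, and CPM were recomputed from the counts. DESeq2 1.42.0, limma 3.58.1 and other settings were alternatives. The procedure was also run on simulated counts as a check of the code. These held no library unlike the others, so the run does not bear on Jarid2-KO MPP replicate 1. Counting intervals and floors cover counting error only.

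The genes named were Jarid2, Slamf1 and Flt3, the 12 largest rises and 12 largest falls past the threshold (average logCPM of at least 2, libraries not overlapping, predicted genes and pseudogenes left out), up to 4 called members of each of 26 lists, the 10 smallest p of the difference, Mycn, Runx1t1, Socs2, Dntt and Satb1, and Xist, Ddx3y, Mpo and Elane. Others named were chosen after their values were seen. The members and lists were chosen with earlier results of these data known. Some genes that meet the rule are not reported here.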

Additional observations from a re-analysis of the deposited data

How the results depend on the processing

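The 83 genes of the knockout contrast, the 185 of the control contrast, the 0 of the difference and the 59 shared became 563, 451, 74 and 187 with no filter on low counts. With DESeq2 they became 404, 474, 7 and 171, and with DESeq2 and Jarid2-KO MPP replicate 1 left out 416, 759, 13 and 208. Limma-voom gave 101 in knockout, 735 in control and 83 shared, and 65, 690 and 59 without that library, so its knockout count fell where edgeR's rose. With only the 6 libraries compared the counts were 23 in knockout (107 without that library), 395 in control and 20 shared. The cause of these moves was not tested. Leaving out one library at a time gave 36 to 180 in knockout, 61 to 403 in control, 0 to 0 for the difference and 29 to 93 shared. The knockout count was lowest without Jarid2-KO HSC replicate 2 and highest without Jarid2-KO MPP replicate 3. The control count was highest when Jarid2-KO MPP replicate 1 was dropped. It was 97, 70 and 102 when control HSC replicate 1, 2 or 3 was dropped, and 64, 61 and 69 for the control MPP replicates in the same order. With the replicate block the counts were 77 in knockout, 167 in control, 0 for the difference and 57 shared. Same-numbered HSC and MPP deviated together weakly (correlations 0.133, 0.026 and 0.149 in knockout), so the numbers were not taken as pairs. Signs were compared for the knockout changes of the 50 named genes, for the differences of some of them and for the list medians. No value past the threshold among these changed sign. Among those not past it, the knockout changes of Socs2, Ear6, Il10ra and Xist, the difference of Satb1 and 7 list medians (mitosis, cell cycle, interferon, STAT5, Hox, immediate early and adhesion) took the other sign in 1 or more settings. Alternatives that left out Jarid2-KO MPP replicate 1 in DESeq2, limma-voom and the fit of the compared libraries were chosen after seeing the data. With 3 libraries a group, changes of low genes are imprecise.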

Other observations

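Several gene groups not described above held few or no calls in Jarid2-KO MPP against HSC. Of 23 adhesion and homing genes, 2 were lower (Selp and Jam2), against 0.348% of all genes tested. The list median was 0.11 on the log2 scale and turned to -0.12 without Jarid2-KO MPP replicate 1, where 3 were lower. The same list held 2 higher and 2 lower genes in control. Of 44 transcription factors of early haematopoiesis, 1 (Satb1) was higher in knockout and 2 were higher in control, with medians of 0.26 and 0.11. Over all genes tested, 0.177% were higher in knockout, and 0.512% were higher and 0.657% lower in control. None of 25 glycolysis and hypoxia genes passed (median -0.14), and none of 29 ribosome biogenesis genes (median -0.14). None of 14 cell cycle regulators passed in knockout, and 1 was lower in control. The 9 fetal stem cell genes tested held no call in knockout, and Igf2bp2, an RNA-binding protein that binds growth factor transcripts, was lower in control.

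No tested member of the following lists of mature immune cell genes passed in knockout. Of 13 B, T and NK cell genes, 11 had positive values in knockout (median 0.59, and 0.74 without Jarid2-KO MPP replicate 1). Of 13 mast cell, basophil and eosinophil genes, 9 had positive values (median 0.73, and 0.41 without that library), and the summed level of the 14 listed was 370.2 to 1144 CPM in knockout MPP and 475.8 to 894.5 CPM in knockout HSC, ranges that overlapped. Of 14 macrophage and dendritic cell genes, 12 had positive values, with a median of 0.53 that was 0.07 without that library.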
